A study of Mus musculus with 2 samples.

Results

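Mural cells of the post-ischemic kidney were examined in single-cell transcriptomes from 2 libraries, each made from 1 male C57BL/6 mouse aged 9 weeks. Both mice had bilateral ischemia-reperfusion injury (IRI) and their kidneys were taken at 24 h. One received saline (control) and the other JPI-289, an inhibitor of poly (ADP-ribose) polymerase (PARP), at 100 mg/kg into the peritoneal cavity just before reperfusion. With 1 mouse per group there was no replicate, so no difference between the libraries could be tested, and every interval below covers counting error only. A barcode, which stands for a droplet and usually a cell, was a member when it held at least 500 unique molecular identifiers (UMIs, each a counted RNA molecule), at most 50% mitochondrial UMIs, at least 3 UMIs of Rgs5, Acta2, Tagln, Myh11 and Notch3 together, no fewer of these than of the fibroblast genes Dcn, Col1a1, Col1a2 and Col3a1, and at most 3 UMIs of the endothelial genes Pecam1, Cdh5, Kdr and Flt1. Members were thus chosen by the measured UMIs of these 13 genes, and what those genes show between members and other barcodes is not a finding. This rule took 195 of 12428 barcodes, 142 of 6078 in the control and 53 of 6350 in the JPI-289 library. The control members held 865264 UMIs (median 2201 per barcode, range 500 to 55366) and the JPI-289 members 234551 (median 3115, range 521 to 13072). No member barcode occurred in both libraries, whereas 50 barcodes of the whole set did. At the marker threshold, 14 control and 7 JPI-289 members had exactly 3 marker UMIs, and 53 and 22 barcodes with 2 were left out.

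Mural cells wrap the endothelium from outside. Smooth muscle cells of the arterioles hold actin, myosin and transgelin filaments and set vascular tone, pericytes line the peritubular capillaries, and mesangial cells support the glomerular tuft. Renin cells of the juxtaglomerular arteriole belong to the same lineage. Pericytes and perivascular fibroblasts are known to take up contractile genes after kidney injury, so that Acta2 and Tagln alone do not separate smooth muscle from activated stroma.

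The members' own genes bore out the mural label only in part. Of the 142 control members, 89 had no UMI of Rgs5 (a G-protein regulator of pericytes), Myh11 (smooth muscle myosin) or Notch3 (the receptor that maintains arterial smooth muscle), and 22 of the 53 JPI-289 members had none either. The members were therefore described in 3 groups, which were set after the values had been seen. In 43 control and 19 JPI-289 members, the markers of another cell type outnumbered the 5 mural markers. Among the rest, 22 control and 17 JPI-289 barcodes held at least 2 UMIs of Rgs5, Myh11 and Notch3 together, and no fewer of these than of the 4 fibroblast genes; they are called the Rgs5/Myh11/Notch3 group. The remaining 77 control and 17 JPI-289 barcodes rested on Acta2 and Tagln and are called the Acta2/Tagln group. At the edge between them, 7 control and 4 JPI-289 barcodes had 1 UMI of the 3 genes, and 12 and 1 had 2 or more but were outnumbered by the fibroblast genes.

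**Figure D1:**
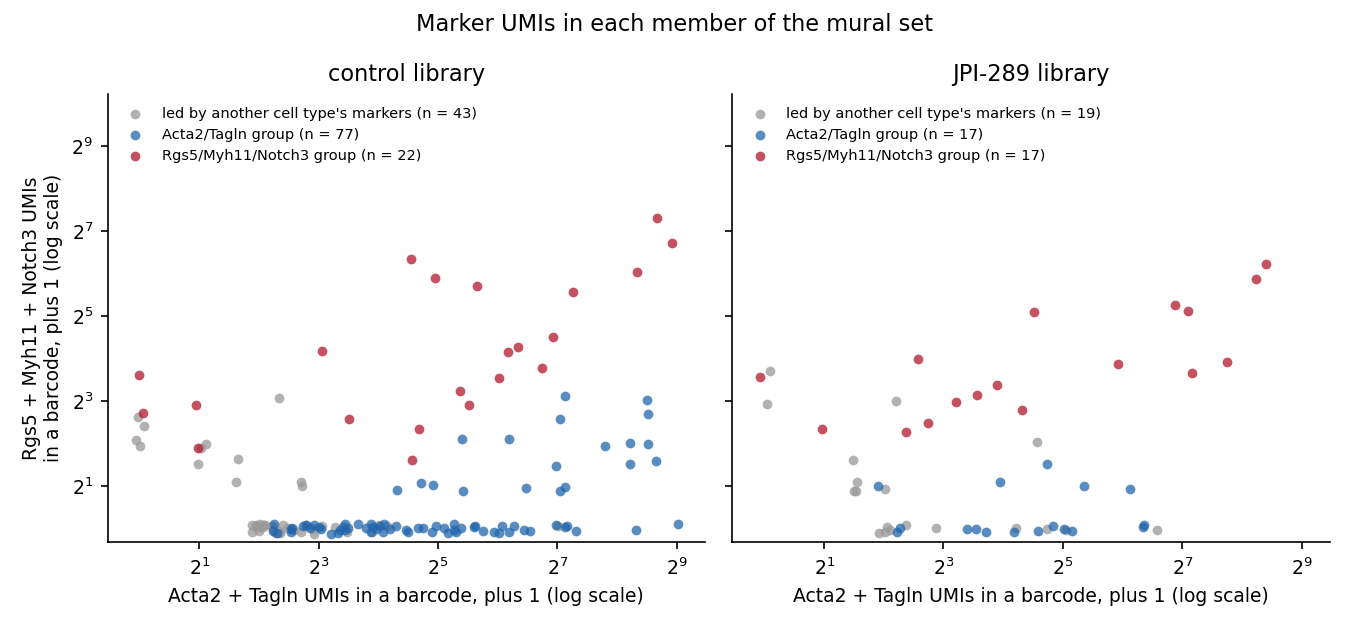
Each point is a member, with its Acta2 and Tagln UMIs on the x axis and its Rgs5, Myh11 and Notch3 UMIs on the y axis, both plus 1 and on log scales, for the control (left) and JPI-289 (right) library. Points were shifted slightly so that they do not hide each other. The Acta2/Tagln group lies toward the bottom, with 4 to 501 control and 3 to 82 JPI-289 UMIs of Acta2 and Tagln and at most 8 and 2 UMIs of the other 3 genes (none in 58 and 12 barcodes), and holds 77 barcodes on the left and 17 on the right.

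In the Rgs5/Myh11/Notch3 group, Rgs5 (chr1:169655501-169695813, GRCm38) held 222 control and 156 JPI-289 UMIs, Myh11 (chr16:14194535-14291372) 371 and 143, and Notch3 (chr17:32120820-32166852) 138 and 39. In the Acta2/Tagln group, Rgs5 held 5 and 1 UMIs and Myh11 13 and 1, beside 2769 and 129 of Acta2 (chr19:34241090-34255590, smooth muscle actin) and 3307 and 364 of Tagln (chr9:45929619-45936058, transgelin). These are the genes that chose the groups, so the contrast is a description of the rule. All 3 of Rgs5, Myh11 and Notch3 were found together in 13 of 22 control and 12 of 17 JPI-289 barcodes of the first group. Of the barcodes of that group, 18 of 22 and 16 of 17 had most of their 5-marker UMIs from the contractile genes Acta2, Tagln and Myh11.

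Promoters are shown for a contractile gene found in both groups, Myl9, and for the renin gene, whose UMIs within these 2 groups of members lay almost entirely in the first, so that the start-site sequence can be read beside their values. They come from RefSeq (GRCm38.p6), run from 250 bases before to 50 bases after the start site, and are in capitals where a motif was matched. Of 8 genes looked up, 6 had a promoter in the table; Tagln and Myh11 did not. The CArG box, the letters to which serum response factor binds in contractile genes, was searched on both strands and is present in 1.63% of 32851 promoters; TATAAA is present in 13.6%. Myl9 (chr2:156775214-156775513, plus strand) has a CArG box that begins 161 bases before the start, and Ren1 (chr1:133350424-133350723, plus strand) a TATAAA that begins 29 bases before it. No CArG box of these letters was found in the windows of Acta2, Rgs5, Notch3, Ren1 or Akr1b7.
Myl9: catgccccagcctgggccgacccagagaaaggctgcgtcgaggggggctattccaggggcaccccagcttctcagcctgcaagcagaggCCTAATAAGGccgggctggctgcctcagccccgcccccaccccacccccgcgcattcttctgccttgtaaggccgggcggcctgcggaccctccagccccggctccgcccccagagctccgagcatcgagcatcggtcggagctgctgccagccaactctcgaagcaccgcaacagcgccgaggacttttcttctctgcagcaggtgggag
Ren1: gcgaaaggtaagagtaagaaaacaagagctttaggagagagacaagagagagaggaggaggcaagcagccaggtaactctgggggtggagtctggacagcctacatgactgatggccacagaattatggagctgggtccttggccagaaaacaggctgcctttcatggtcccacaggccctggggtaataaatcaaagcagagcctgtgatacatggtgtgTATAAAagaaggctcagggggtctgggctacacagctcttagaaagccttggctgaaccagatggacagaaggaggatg

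Members made up 2.34% of control barcodes (exact Clopper-Pearson 95% interval 1.97 to 2.75) and 0.835% of JPI-289 barcodes (0.626 to 1.09), a share 2.80-fold higher in the control (2.03 to 3.91). The groups were then taken apart. The Rgs5/Myh11/Notch3 group made up 0.362% (0.227 to 0.548) and 0.268% (0.156 to 0.428), and its ratio of 1.35 had an interval that spanned equal shares (0.686 to 2.71). The Acta2/Tagln group made up 1.27% (1.00 to 1.58) and 0.268% (0.156 to 0.428), 4.73-fold higher in the control (2.77 to 8.54). This split rests in part on the limit on the fibroblast genes, which are genes of the rule and were set as a limit after the values had been seen. With no such limit the first group held 34 control and 18 JPI-289 barcodes (0.559% and 0.283%, 1.97-fold higher in the control, 1.08 to 3.71) and the second 65 and 16 (4.24-fold, 2.43 to 7.86), so the first group's share was then higher in the control and the intervals of the 2 ratios overlapped. Members led by another cell type's markers made up 0.707% and 0.299%. The median depth of the Acta2/Tagln barcodes was 1890 control and 985 JPI-289 UMIs, and that of the Rgs5/Myh11/Notch3 barcodes 2890 and 4370. Fewer cells of a type, and fewer of them released from the tissue or passing the marker threshold, cannot be told apart here.

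**Figure D2:**
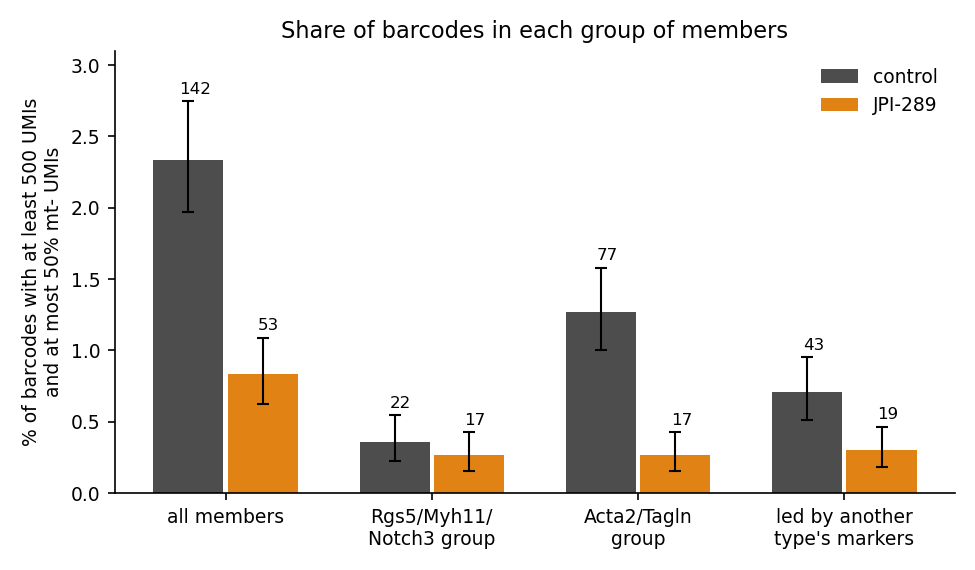
Bars give the share of barcodes with at least 500 UMIs and at most 50% mitochondrial UMIs that fell in each group, for the control and JPI-289 library, with exact Clopper-Pearson 95% intervals and the number of barcodes above each bar. The intervals of the 2 libraries overlap for the Rgs5/Myh11/Notch3 group (22 and 17 barcodes) and lie apart for the Acta2/Tagln group (77 and 17).

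Summed over every barcode of a library, the 5 marker genes gave the following values. They are the genes of the rule, and members hold 43.4% to 57.7% of their control and 34.9% to 66.4% of their JPI-289 UMIs, so these sums overlap with the shares above and are not independent of them. Acta2 held 7115 control and 1693 JPI-289 UMIs and Tagln 7874 and 1979, log2 ratios of JPI-289 over control, scaled to each library's total, of -1.96 (-2.04 to -1.89) and -1.88 (-1.96 to -1.81). Rgs5 held 559 and 369, a log2 ratio of -0.49 (-0.68 to -0.30). Myh11 (780 and 269, -1.43) and Notch3 (426 and 149, -1.40) lay between them. Per 100 UMIs of Acta2 and Tagln there were 11.8 of Rgs5, Myh11 and Notch3 in the control (11.2 to 12.4) and 21.4 with JPI-289 (19.8 to 23.2). In barcodes with fewer than 100 UMIs, which hold mainly free RNA, the 5 markers came to 3.65 (control) and 1.08 (JPI-289) UMIs per 10000.

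The members led by other cell types accounted for 30.3% of control members and 35.8% of JPI-289 members. They held 45.6% of all control member UMIs and 45.1% of the JPI-289 ones. The 4 deepest control members, with 36615 to 55366 UMIs, had only 3 or 4 mural marker UMIs each and together 1511 UMIs of Psca, 527 of Krt5 and 324 of Upk1b, which are genes of urothelium and its basal cells; none of these genes had a UMI in any JPI-289 member. Injured tubule markers (Spp1 the most abundant) led 17 and 13 of these barcodes and proximal tubule markers 15 and 2. Macrophage markers led 6 control barcodes and no JPI-289 barcode, with 947 UMIs in the control (Lyz2 457 of them) against 2. The sums over all members include these barcodes. Of 3475 genes with at least 50 UMIs in all members, 324 were at least 2-fold higher and 464 at least 2-fold lower with JPI-289, which is 9.32% and 13.4% of the genes. Without the members led by other types, 190 of 1958 genes were past 2-fold higher (9.7%) and 208 past 2-fold lower (10.6%). Over all members, Psca (1813 control UMIs, 0 with JPI-289, at least 164-fold lower against a limit of 3 UMIs over the group) and Krt5 (528 and 0, at least 47.7-fold lower) stood at one end. Umod (14 and 135, log2 ratio 5.11) and Lcn2 (66 and 389, log2 ratio 4.43), genes of the thick ascending limb and of injured tubule, stood at the other; a single barcode held 68.9% of the JPI-289 Umod and 82.0% of the Lcn2. Rgs5 itself was higher with JPI-289 over all members (log2 ratio 1.45, 1.16 to 1.73) but not within its own group (-0.39, -0.69 to -0.09). It was 0.84 there with no limit on the fibroblast genes, where the control total grew by barcodes of the Acta2/Tagln group. That group held 5 control UMIs of Rgs5. The 2 remaining groups were therefore described apart.

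Genes outside the rule whose levels differed between these groups in both libraries were picked after their values had been seen, and describe the groups without testing them. Some were higher in the Rgs5/Myh11/Notch3 barcodes. Myl9, the regulatory myosin light chain, stood at 65.1 (control) and 30.5 (JPI-289) UMIs per 10000, against 20.01 and 7.56 in the Acta2/Tagln group and 3.86 and 0.0969 in barcodes led by the fibroblast genes. Cspg4 (NG2, the proteoglycan of pericytes) held 61 and 18 UMIs in the first group and 0 in the Acta2/Tagln group in both libraries. Sparcl1, a matricellular protein, stood at 31.6 and 33.8 per 10000 against 0.415 and 3.18. Ednrb, an endothelin receptor, held 55 and 83 UMIs against 11 and 2, and Ren1 4114 and 2085 against 3 and 29.

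Others were higher in the Acta2/Tagln barcodes. The limit on the fibroblast genes placed 12 control barcodes and 1 JPI-289 barcode in this group. Genes of fibroblasts and matrix may thus stand higher here in part by construction. Levels of both groups without these barcodes were not compared. Tnc, the matrix glycoprotein tenascin C that is deposited in injured tissue, stood at 12.6 and 18.9 UMIs per 10000, against 0.939 and 1.02 in the Rgs5/Myh11/Notch3 group. Hsd11b1, which reactivates glucocorticoids, held 417 and 91 UMIs against 1 and 7. Cxcl14 (285 and 49 against 0 and 7), Aldh1a2, which makes retinoic acid (109 and 23 against 0 and 1), and Pdgfra, a receptor of fibroblasts (117 and 16 against 0 and 1), followed the same pattern. Not every gene of fibroblasts or matrix was so nearly absent from the Rgs5/Myh11/Notch3 group. Pdgfrb, which mural cells and fibroblasts share, was at 4.54 and 2.39 per 10000 against 4.93 and 2.17. The matrix genes Mgp (8.57 and 15.8) and Sparc (16.9 and 10.1) were also present in the Rgs5/Myh11/Notch3 group. Both were higher in the Acta2/Tagln group, Mgp at 16.8 and 26.9 and Sparc at 59.97 and 27.3. Several of these genes were also found in the barcodes led by the fibroblast genes. Sparc stood at 56.6 and 23.8 per 10000 in them and Bgn at 24.1 and 9.79 (24.2 and 11.1 in the Acta2/Tagln group), with overlapping counting intervals in each library. Cxcl14 was higher in the fibroblast-led barcodes in the control, at 11.9 (10.3 to 13.7) against 7.39 (6.55 to 8.30), and stood at 14.3 against 9.75 with JPI-289. Pdgfra was at 4.88 and 2.23 in them against 3.03 and 3.18, and Hsd11b1 at 13.3 and 7.17 against 10.8 and 18.1, so the order of these groups turned between the libraries for both genes, though the counting intervals overlapped for Pdgfra with JPI-289 and for Hsd11b1 in the control. The fibroblast-led barcodes held 2444 control and 479 JPI-289 UMIs of fibroblast markers, and 551 and 860 of injured tubule markers. The part of this in the turned order was not tested. Further genes stood apart. Tnc was at 4.28 and 7.75 per 10000 in the fibroblast-led barcodes, Serpina3n held 6 and 2 UMIs against 386 and 105 in those, and the complement gene C7 10 and 2 against 137 and 32. No macrophage C1q UMI and no lymphocyte marker UMI was found in the Acta2/Tagln group. No cell type name was given to it.

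**Figure D3:**
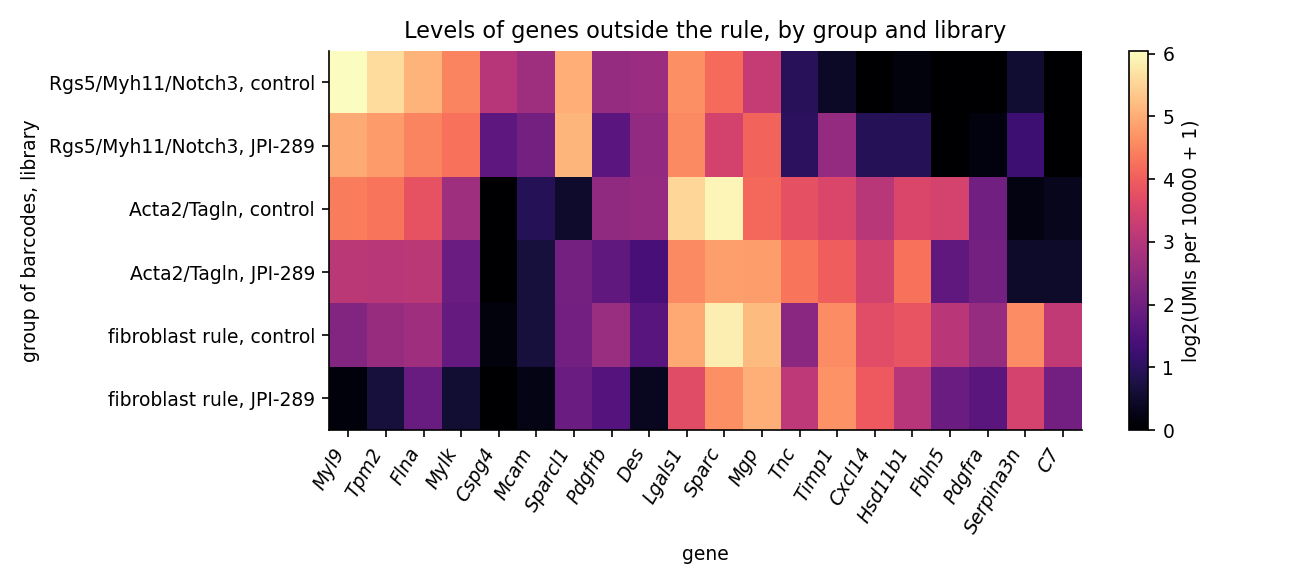
Colour gives log2 of UMIs per 10000 plus 1, summed over the barcodes of each group and library (rows), for 20 genes that the rule did not use (columns). Myl9, Cspg4 and Sparcl1 are brightest in the 2 upper rows and Tnc in the middle rows. Hsd11b1 and Cxcl14 are bright in the middle rows and in those of the fibroblast rule, and Serpina3n and C7 in the latter.

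JPI-289 and control were compared first in the Rgs5/Myh11/Notch3 group, with 85168 control UMIs in 22 barcodes and 78428 JPI-289 UMIs in 17. Of 476 genes with at least 50 UMIs, 50 were at least 2-fold higher (10.5%) and 31 at least 2-fold lower (6.51%) with JPI-289, and the median log2 ratio was 0.18. With ratios centred on that median the split was 32 higher and 46 lower. Before centring 288 of the 476 genes (60.5%) were above 0, and the members of each list below are to be read beside that share. Ratios below are log2 of the JPI-289 share over the control share of UMIs, with 0.5 UMI added to each sum, and stand beside that median. They depend on which barcodes the group holds. With no limit on the fibroblast genes, 12 more control barcodes and 1 more JPI-289 barcode raised the sums to 214238 and 82616 UMIs, and 89 of 917 measured genes were past 2-fold higher and 121 lower. In that wider group Akr1b7 (3.9), Cdkn1a (3.94), Hspb1 (1.91), Adamts1 (1.87), Rasd1 (2.92), Plin2 (2.45), Plat (2.61), Fos (1.65) and Ccn1 (1.98) stood above 0, and Tagln (-1.14), Pdgfrb (-1.50), Igfbp5 (-2.44), Atf3 (-2.04), Myl9 (-0.51) and Cspg4 (-0.36) below it, as in the narrower one. The added control barcodes came from the Acta2/Tagln group, which held 0 control UMIs of Akr1b7 and Cspg4 and 7 of Rasd1. For such genes nearly the same UMIs stood over a larger control total, which raises a ratio, so staying above 0 lends no support. Ren1 (0.39), Mt2 (-0.074) and Rgs5 (0.84) changed sign, and Mt1 (0.59), Myh11 (-0.03) and Notch3 (-0.66) stood nearer to 0. The Acta2/Tagln group held 3 control UMIs of Ren1, 5 of Rgs5 and 13 of Myh11. The ratios of these genes thus moved with the control total rather than with their own UMIs. The contractile genes of the Rgs5/Myh11/Notch3 group were mostly lower. Of 12 genes of the contractile list that were measured and were not rule markers, 1 was higher and 11 lower, 1 of them past 2-fold, with a median of -0.55, which was -0.30 over the same genes without the 5% of barcodes with most UMIs and -0.25 over 13 genes with no limit on the fibroblast genes. Myl9 held 554 and 239 UMIs (-1.09, -1.32 to -0.87), with 0 to 159 UMIs per control barcode (median 8.5) and 0 to 55 per JPI-289 barcode (median 5). Tpm2, a tropomyosin, held 405 and 207 (-0.85) and Flna, the actin crosslinker filamin A, 281 and 170 (-0.60), while Lmod1, a smooth muscle leiomodin, was the gene that was higher, with 26 and 36 (0.58, -0.18 to 1.37). The barcodes of both libraries overlapped for each of these genes. The sums rest on few deep barcodes. The 3 with most Myl9 held 67.5% of its control and 52.7% of its JPI-289 UMIs, and without the deepest barcodes its ratio was -0.31.

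The rule's own markers in this group are given as a description, because barcodes entered by their UMIs of these genes. Tagln held 889 control and 382 JPI-289 UMIs (-1.10, -1.28 to -0.93), Myh11 371 and 143 (-1.25, -1.55 to -0.97), Notch3 138 and 39 (-1.69, -2.26 to -1.18), Rgs5 222 and 156 (-0.39, -0.69 to -0.09) and Acta2 1225 and 977 (-0.21, -0.33 to -0.08). Tagln ran from 0 to 221 UMIs per control barcode (median 17) and from 0 to 94 per JPI-289 barcode (median 5), so the libraries overlapped. Notch3 had a median of 4 UMIs (0 to 22) against 1 (0 to 5). Without the 5% of barcodes with most UMIs, Acta2 turned to 0.32 and Tagln and Myh11 stood at -0.47 and -0.55. Of the pericyte genes outside the rule, Cspg4 was lower at 61 and 18 UMIs (-1.61, -2.49 to -0.86) and Pdgfrb at 42 and 17 (-1.16, -2.09 to -0.34). The pericyte list had 4 measured genes, 1 of them higher, and a median of -0.95. This median was -0.36 over 7 genes with no limit on the fibroblast genes. Without the 5% of barcodes with most UMIs it was -0.81 over the same 4 genes and -1.48 over the 3 still measured.

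Renin and a companion gene were at opposite sides of 0 in their summed UMIs, although Ren1 stood at 0.39 with no limit on the fibroblast genes. That change came from a larger control total, since the Acta2/Tagln group, source of the added barcodes, held 3 control UMIs of Ren1. Ren1 (chr1:133350510-133360325, the enzyme that starts angiotensin formation) held 4114 control and 2085 JPI-289 UMIs in the Rgs5/Myh11/Notch3 group (-0.86, -0.94 to -0.79), from 0 to 1770 per control barcode (median 4) and from 0 to 1173 per JPI-289 barcode (median 2). The first and second barcode of each library held 72.0% and 82.6% of these UMIs, so the ratio describes few cells. Akr1b7 (chr6:34412334-34423142), an aldo-keto reductase known as a marker of renin cells, held 76 control and 440 JPI-289 UMIs (2.64, 2.30 to 3.02), from 0 to 20 per control barcode and from 0 to 181 per JPI-289 barcode. Within the 12 control and 8 JPI-289 barcodes that had at least 3 Ren1 UMIs, there were 1.78 and 20.9 Akr1b7 UMIs per 100 of Ren1. The median Ren1 count of these barcodes was 67 (4 to 1770) in control and 103 (3 to 1173) in JPI-289, while their summed Ren1 was 659 and 556 per 10000. These barcodes held 73 and 434 Akr1b7 UMIs, with medians of 4 and 20.5 per barcode; their ranges of 0 to 20 and 0 to 181 overlapped. Leaving out the barcode with most Akr1b7 in each library left a ratio of 2.39. In the whole libraries Akr1b7 held 178 and 935 UMIs (2.50, 2.27 to 2.74) while Ren1 held 10055 and 3528 (-1.40, -1.46 to -1.35), and in barcodes under 100 UMIs Akr1b7 stood at 0 and 0.262 per 10000.

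Cdkn1a, the cell cycle inhibitor p21 and a target of p53 (chr17:29090976-29100727), was found in 9 of 22 control and 16 of 17 JPI-289 barcodes of the group. It held 19 and 137 UMIs (2.94, 2.27 to 3.74), with 0 to 6 per control barcode (median 0) and 0 to 43 per JPI-289 barcode (median 5). After each barcode was thinned to 500 UMIs it was found in 2 of 22 and 8 of 17. The other p53 targets of the list had fewer than 50 UMIs each. Cdkn1a was also higher with JPI-289 in endothelial barcodes (1155 and 3674 UMIs, 1.72) and in barcodes under 100 UMIs (1.63 and 5.29 per 10000), and neutrophil-led barcodes held a UMI of it in 50.8% and 46.7% at median depths of 2226 and 2180 UMIs. The part of free RNA in its level was not tested barcode by barcode; with free RNA subtracted from the sums the ratio was 2.96.

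Metallothioneins, which bind zinc and copper, were higher as well in this group, but with no limit on the fibroblast genes Mt1 was at 0.59 and Mt2 at -0.074. Mt1 held 41 control and 494 JPI-289 UMIs in the Rgs5/Myh11/Notch3 group (3.69, 3.25 to 4.21), with medians of 1 (0 to 15) and 5 (0 to 147) per barcode, and 3 JPI-289 barcodes held 82.0% of its UMIs. With each barcode weighted equally its ratio was 2.92. Mt2 held 4 and 56 UMIs (3.77, 2.49 to 5.85). Mt1 stood at 19.0 and 58.4 UMIs per 10000 in barcodes under 100 UMIs, and in neutrophil-led barcodes 49.2% and 92.7% had a UMI of it. Hspb1, a small heat shock protein of muscle, held 446 and 1014 UMIs (1.30, 1.14 to 1.47), with medians of 4 (0 to 200) and 13 (0 to 330) per barcode. Few barcodes held most of these, with 200 and 132 UMIs at the top of the control and 330 and 324 at the top of JPI-289. Plin2, which coats lipid droplets, held 3 and 47 UMIs, of which 1 JPI-289 barcode held 59.6%. Adamts1, a matrix protease, held 82 and 233 (1.62, 1.26 to 2.01) and was found in 17 of 22 and 16 of 17 barcodes, and Rasd1, a Ras-related protein that glucocorticoids induce, held 59 and 175 (1.68, 1.25 to 2.14).

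**Figure D4:**
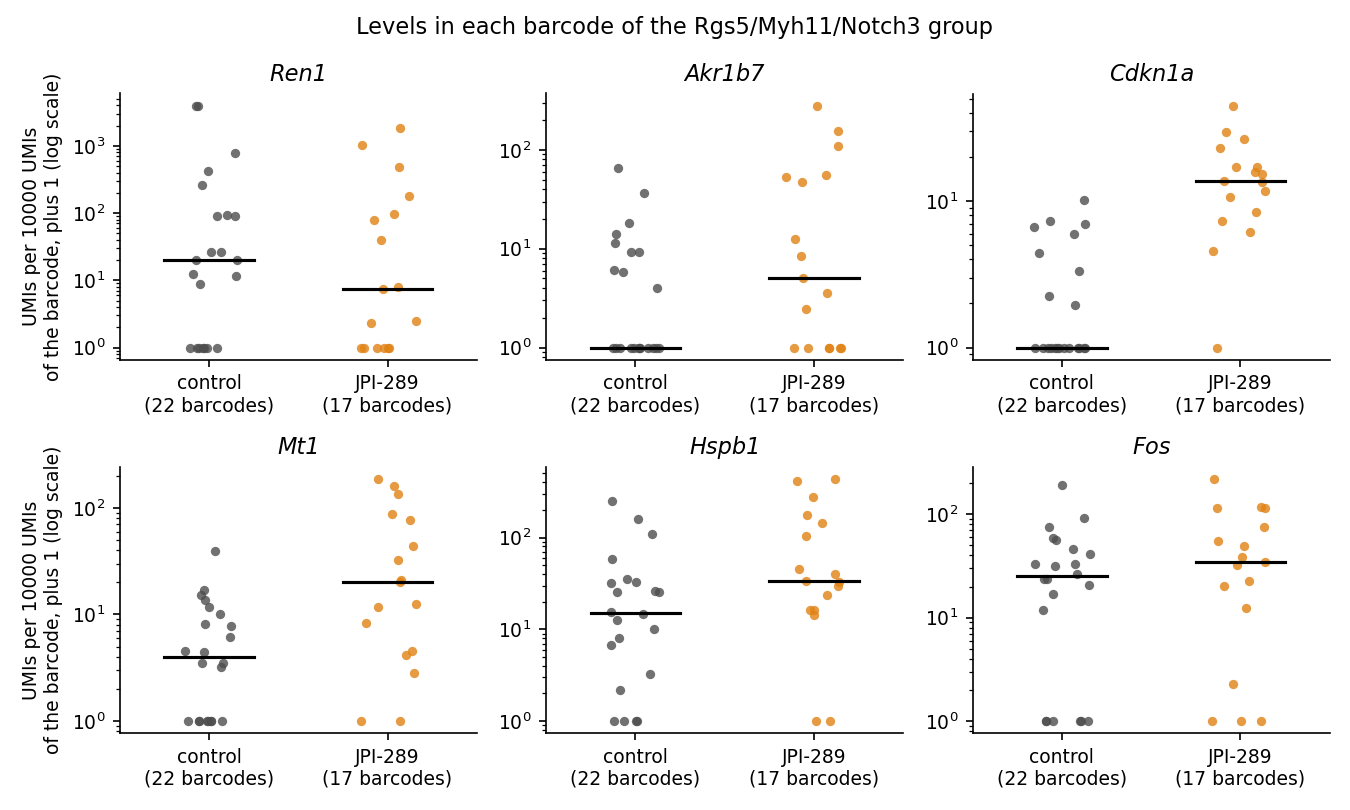
Each point is a barcode of the Rgs5/Myh11/Notch3 group, with UMIs of the gene per 10000 UMIs of that barcode, plus 1, on a log scale; lines are medians over 22 control and 17 JPI-289 barcodes. The 2 libraries overlap for all 6 genes; Cdkn1a is absent from 13 control barcodes and 1 JPI-289 barcode.

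At the other end of this group, Igfbp5, which binds insulin-like growth factors, held 198 control and 15 JPI-289 UMIs (-3.56), but 1 control barcode held 79.3% of them, and without the top barcode of each library the ratio was -1.97. Atf3, a stress transcription factor, held 56 and 5 (-3.24, -5.04 to -2.06) in 7 and 4 barcodes. Most other immediate early genes stood above 0. Of 13 measured, Atf3 included, 11 were higher with JPI-289, 1 past 2-fold, with a median of 0.41. With no limit on the fibroblast genes this median was 1.25 over 14 genes. Fos held 338 and 475 UMIs (0.61, 0.41 to 0.82; 0.24 without the 5% of barcodes with most UMIs) in 16 of 22 and 14 of 17 barcodes, Nr4a1 77 and 64 (-0.15) and Egr1 143 and 183 (0.47, 0.15 to 0.80). Ccn1, a matricellular target of YAP and serum response factor, held 103 and 229 (1.27, 0.93 to 1.62).

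The fixed gene lists gave the following picture in the Rgs5/Myh11/Notch3 group, where the median of all 476 genes was 0.18 and 60.5% of them were above 0. Genes of cytosolic ribosomes were higher in 71 of 77 cases with a median of 0.43, 5 of them past 2-fold. The NRF2 and metallothionein list was higher in 6 of 6 with a median of 0.72, the heat shock list in 5 of 6 with 0.50, and the glycolysis and hypoxia list in 4 of 5 with 0.22. Nuclear genes of oxidative phosphorylation were higher in 17 of 38 with a median of -0.24, mitochondrially encoded genes in 4 of 11 with -0.03, and matrix genes in 5 of 10 with -0.04. The PDGF, Notch and TGF-β list had 2 of 4 higher (0.31), the mesangial list 2 of 4 (-0.15) and the smooth muscle transcription factor list 0 of 3 (-0.15). Some of these medians depended on how the barcodes were weighted. Without the 5% of barcodes with most UMIs the oxidative phosphorylation median was -0.02 over the same 38 genes, and 0.34 over the 23 that still reached 50 UMIs. With each barcode weighted equally the mitochondrially encoded median was 0.49 and the smooth muscle transcription factor median -1.02. With no limit on the fibroblast genes the ribosomal median was -0.10 over 79 genes, the matrix median -1.24 over 20, the PDGF, Notch and TGF-β median -0.56 over 8, the mitochondrially encoded median 0.42 over 11 and the smooth muscle transcription factor median 0.16 over 8. The median of all genes measured in that wider group is not given, so these medians have no background to stand beside. Proteasome genes were higher in 2 of 3 and interferon and MHC class I genes in 2 of 2 (median 0.72). With no limit on the fibroblast genes the interferon and MHC class I median was -0.37 over 4 genes. Vasoactive receptors and ion channels had 1 measured gene each, Ednrb (55 and 83 UMIs, 0.71) and Atp2a2 (54 and 44, -0.17). With no limit on the fibroblast genes Ednrb was at 1.86 and the ion channel median, again over 1 gene, at 0.43. With each barcode weighted equally the ion channel median was 0.09. Chemokine, PARP and NAD, and proliferation genes did not reach 50 UMIs. Parp1, the main target of PARP inhibitors, had 2 and 1 UMIs in this group and 22 and 2 in all members, which is too few for a ratio. Agtr1a (10 and 3 UMIs), Ednra (8 and 3), Myocd (8 and 19), Srf (9 and 6), Gata3 (5 and 9) and Itga8 (3 and 1) were also too shallow to compare.

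In the Acta2/Tagln group, 77 control barcodes held 385863 UMIs and 17 JPI-289 barcodes 50264. The deepest JPI-289 barcodes held 12239, 9225 and 6017 UMIs, against a median of 985, so the JPI-289 sums rest on few barcodes. List medians of this group were not computed without these barcodes. Of 1373 measured genes 78 were at least 2-fold higher (5.68%) and 171 at least 2-fold lower (12.5%) with JPI-289, the median log2 ratio was -0.05 and 647 genes (47.1%) were above 0. The contractile list was lower in 11 of 12 genes, 4 past 2-fold, with a median of -0.72. Myl9 held 772 and 38 UMIs (-1.39, -1.91 to -0.93) and was found in 65 of 77 and 11 of 17 barcodes. Actg1, a cytoplasmic actin outside that list, held 1417 and 66 (-1.47, -1.86 to -1.13) and Des, the muscle intermediate filament desmin, 186 and 8 (-1.52, -2.83 to -0.59). Acta2 itself, a rule marker, was at 2769 and 129 (-1.48, -1.75 to -1.23), while Tagln was at 3307 and 364 (-0.24, -0.40 to -0.09).

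Matrix genes of the Acta2/Tagln group were mostly lower. Of 21 measured outside the rule, 6 were higher and 15 lower, 8 past 2-fold, with a median of -0.88. Sparc, a collagen-binding glycoprotein, held 2314 and 137 UMIs (-1.13, -1.40 to -0.89), Bgn, the proteoglycan biglycan, 933 and 56 (-1.11, -1.53 to -0.73) and Fbln5, an elastic fibre protein, 394 and 12 (-2.04, -3.06 to -1.28). Tnc, outside that list, went the other way with 486 and 95 (0.59, 0.25 to 0.91), as did Timp3, an inhibitor of metalloproteinases, with 311 and 126 (1.64, 1.33 to 1.94) in 41 of 77 and 9 of 17 barcodes. Mt1 (2948 and 1278, 1.73, 1.64 to 1.83), Mt2 (532 and 346, 2.32, 2.12 to 2.52) and Adamts1 (147 and 49, 1.37, 0.86 to 1.83) were higher in this group too. Cdkn1a held 17 and 22 UMIs (3.30, 2.33 to 4.32) in 7 of 77 and 9 of 17 barcodes, below the limit of 50. Fibroblast markers, 4 of 7 of which are genes of the rule, stood at 38.3 (control) and 11.5 (JPI-289) UMIs per 10000, and 12 control barcodes (median 10834 UMIs) but 1 JPI-289 barcode were in this group because the 4 fibroblast genes outnumbered Rgs5, Myh11 and Notch3; the part of the first in the ratios was not tested. Without these 13 barcodes 49 of 940 measured genes were past 2-fold higher and 84 lower, the contractile median was -0.40 over 11 genes and the matrix median -0.14 over 13. Myl9 was then at -1.23, Acta2 at -0.92, Tagln at 0.023, Sparc at -0.80, Bgn at -0.97, Fbln5 at -2.27, Tnc at 0.37, Timp3 at 2.14, Mt1 at 1.74, Cdkn1a at 3.08 and Fos at -1.30. A single JPI-289 barcode held 38.4% of Mt1 and 41.6% of Mt2. The barcodes with most Mt1 held 491 and 436 of its 1278 JPI-289 UMIs. Fos held 240 and 13 (-1.21, -2.20 to -0.46; -1.44 without the barcode with most Fos in each library), and ribosomal genes were higher in 38 of 79 with a median of -0.02.

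**Figure D5:**
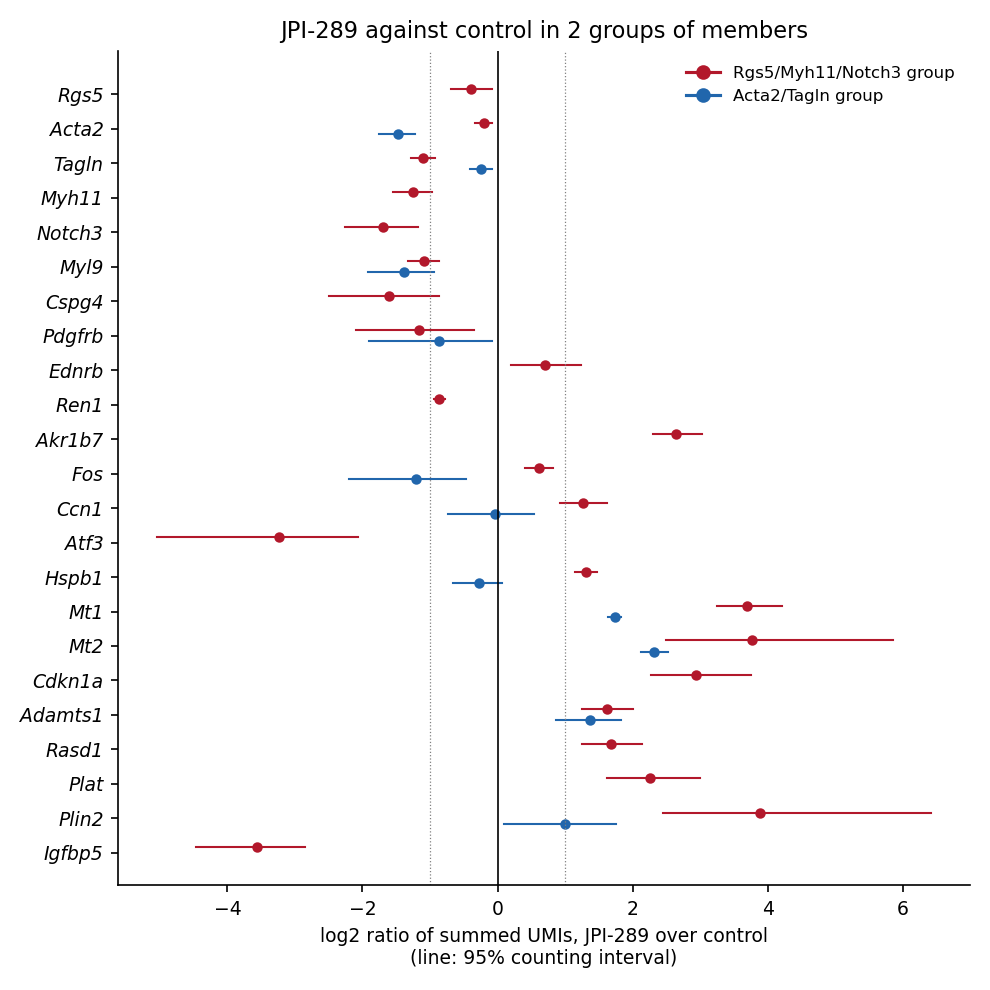
Points give the log2 ratio of summed UMIs, JPI-289 over control, for 23 named genes in the Rgs5/Myh11/Notch3 and the Acta2/Tagln group, with 95% counting intervals; dotted lines mark 2-fold, and genes with fewer than 50 UMIs in a group or none in the JPI-289 library are not drawn there. Myl9 lies to the left of 0 and Mt1, Mt2 and Adamts1 to the right in both groups, whereas Fos lies to the right in the first and to the left in the second.

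Endothelial barcodes (320 control and 385 JPI-289) give a vascular neighbour measured in the same libraries. Their ratios for genes named above were 2.60 for Mt1 (1614 and 9494 UMIs), 2.78 for Plat, the tissue plasminogen activator (386 and 2575), 1.77 for Plin2 (369 and 1219) and -2.21 for Igfbp5 (590 and 123). Plat in the Rgs5/Myh11/Notch3 group held 23 and 103 UMIs (2.26, but 3.83 without the 5% of barcodes with most UMIs and 3.18 with each barcode weighted equally). Hspb1 was at 0.10 (4773 and 4943) and Adamts1 at 0.04 (1133 and 1130) in endothelial barcodes, against 1.30 and 1.62 in the Rgs5/Myh11/Notch3 group. The contractile list was lower there too, in 11 of 11 measured genes with a median of -0.80, and in barcodes led by the fibroblast genes (29 control and 16 JPI-289) in 8 of 8 with a median of -1.07, where the matrix list had 2 of 18 higher and a median of -1.27. These counts stand beside 45.8% of 7975 measured genes above 0 in endothelial and 49.5% of 824 in fibroblast-led barcodes. No test of these differences was possible with 1 mouse per group. The fibroblast-led barcodes also differed in markers of other cells. Injured tubule markers held 551 control and 860 JPI-289 UMIs in them, beside 2444 and 479 of fibroblast markers. Mitochondrial UMIs made up 3.33% and 5.30% of their UMIs. The part of this in the contractile and matrix medians of the fibroblast-led barcodes was not tested.

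Markers of other cells within the 2 groups were counted beside these results. In the Rgs5/Myh11/Notch3 group, proximal tubule markers held 127 control UMIs (8 of 8 genes found, 14.9 per 10000) and 30 JPI-289 UMIs (6 of 8, 3.83 per 10000, Lrp2 and G6pc at 0), with Kap the most abundant at 45 and 20. Macrophage and lymphocyte markers were at 0 in both libraries, podocyte markers came to 0 and 2 UMIs, endothelial markers to 13 and 19, fibroblast markers to 17 and 23, and injured tubule markers to 70 and 92, of which Spp1 held 66 and 80. In the Acta2/Tagln group, proximal tubule markers held 297 and 38 UMIs (7.70 and 7.56 per 10000), fibroblast markers 1479 and 58 (38.3 and 11.5 per 10000; 5 of 7 found, Lum and Dpt at 0, Col3a1 the most abundant at 506 and 20), injured tubule markers 532 and 119 (13.8 and 23.7 per 10000) and endothelial markers 97 and 9. Mitochondrial UMIs made up 3.75% and 3.63% in the first group and 3.16% and 3.79% in the second, and 2.88% and 8.71% in the members led by other cell types. The part of these in the ratios was not tested.

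Detection shares were compared at an equal depth of 500 UMIs. In the Rgs5/Myh11/Notch3 group Myl9 was found in 18 of 22 control and 9 of 17 JPI-289 barcodes (19 and 13 before thinning), Tagln in 16 and 8 (19 and 15) and Fos in 13 and 12 (16 and 14). Ren1 was found in 14 and 8 (15 and 11) and Akr1b7 in 5 and 9 (10 and 11). Neutrophils should lack the mural and renin genes, but neutrophil-led barcodes were chosen by neutrophil markers with no limit on mural genes. They held up to 5 (control) and 35 (JPI-289) mural marker UMIs each. In them Myl9 was found in 0 of 193 and 0 of 643 thinned barcodes, Tagln in 2 and 2, Acta2 in 12 and 10, Ren1 in 2 and 1 and Akr1b7 in 0 and 2. Fos, which those cells express as well, was found in 53 of 193 and 124 of 643. In the Acta2/Tagln group Myl9 was found in 51 of 77 and 8 of 17, Tnc in 14 and 4, and Mt1 in 57 and 16, the last beside 45 of 193 and 411 of 643 neutrophil-led barcodes.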

How the data were processed

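Single-cell 5′ libraries (10x Genomics) of 1 control and 1 JPI-289 treated mouse were used. Per the deposited files, the values are raw counts (UMIs) of each gene in every barcode, made by the authors with Cell Ranger 5.0.1 (per the submitters' processing notes) on mm10, for 32285 genes, with no cell calling and no doublet removal; doublets were not removed here either. Total counts were 38328760 (control) and 35548396 (JPI-289), with 7695 and 7495 barcodes of at least 500 UMIs, 6078 and 6350 of them with at most 50% mitochondrial UMIs. UMIs of members were summed per library and scaled to their total. Genes with at least 50 UMIs over both libraries were compared as log2 ratios with 0.5 UMI added, with exact binomial 95% counting intervals; sums have exact Poisson and shares exact Clopper-Pearson intervals. Medians of lists leave out the rule's markers. Endothelial barcodes had at least 4 UMIs of the endothelial genes and more than of the other sets, fibroblast barcodes at least 3, and neutrophil-led barcodes at least 20 UMIs of 5 neutrophil markers. With n = 1 no test was run, and 2-fold is a limit of size.

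Genes named are the 5 markers, a fixed set of mural genes, the 3 with most UMIs and 2 extremes of each direction per list, and the 10 extremes in each direction of all genes with at least 100 UMIs; Myl9, Tpm2, Flna, Adamts1, Plin2, Plat, Igfbp5, Tnc, Hsd11b1, Cxcl14 and other genes used to describe groups were chosen after their values were seen. The members and lists were chosen with earlier results of these data known. Software was Python 3.11.15, numpy 2.4.6, scipy 1.17.1, pandas 2.3.3 and matplotlib 3.10.9. Gene positions are those of GENCODE vM21 (GRCm38).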

Additional observations from a re-analysis of the deposited data

Results flagged for a closer look

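Fos stood at opposite sides of 0 in the 2 groups of members, with a log2 ratio of 0.61 in the Rgs5/Myh11/Notch3 group and -1.21 in the Acta2/Tagln group, where 1 control barcode held 45.8% of its UMIs. It was 0.24 in the first without the 5% of barcodes with most UMIs, and -1.44 in the second without the barcode with most Fos in each library. Ccn1 stood at 1.27 in the Rgs5/Myh11/Notch3 group and at -2.07 in endothelial barcodes (2849 control and 656 JPI-289 UMIs). Both pairs of counting intervals lay apart from 0, and neither difference was tested, since each library came from 1 mouse.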

How the results depend on the processing

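No paired analysis was possible because each group had 1 library. The share of members was moved by the limits on barcodes. In the control it was 3.30% with at least 1000 UMIs, 2.99% with at most 20% mitochondrial UMIs, 1.84% with at least 5 marker UMIs and 1.63% without members led by another list, where the JPI-289 share was 0.535%; in each of these the control share was the higher. The Rgs5/Myh11/Notch3 group alone came to 0.362% and 0.268%, the Acta2/Tagln group to 1.27% and 0.268%, and with at least 1000 UMIs the former was 0.647% in the control. With no limit on the fibroblast genes the former was 0.559% and 0.283%. Counts of genes past 2-fold over all members, 324 higher and 464 lower, were 189 and 279 with at least 5 marker UMIs, 190 and 208 without members led by another list, 886 and 1244 with a gene minimum of 20 UMIs, 133 and 197 with 100, 50 and 31 in the Rgs5/Myh11/Notch3 group, 78 and 171 in the Acta2/Tagln group, and 210 higher without the 5% of members with most UMIs. Lists with a median above 0 went from 11 of 22 to 7 of 19 in the Acta2/Tagln group. In the Rgs5/Myh11/Notch3 group, the 50 higher and 31 lower genes became 192 and 129 with a gene minimum of 20, 15 and 10 with 100, 32 and 46 with ratios centred on the median gene, and 18 lower without the 5% of barcodes with most UMIs, where 366 genes were still measured (57 higher and 27 lower over the same 476 genes), and 89 and 121 of 917 with no limit on the fibroblast genes. Without the barcodes so moved, the Acta2/Tagln group had 49 and 84 of 940. Mt2 turned from 3.77 to -0.074 in the former, whose 12 added control barcodes held more UMIs than the 22 others. Over all members some ratios turned within a group: from above 0 to -0.39 for Rgs5, -0.39 for the renin list (over its 3 genes 0.081 with each barcode weighted equally, 0.015 without the deepest barcodes and 0.65 with no limit on the fibroblast genes, and 0.76 over the 2 genes still measured without the deepest) and -0.032 for mitochondrial genes in the Rgs5/Myh11/Notch3 group, and in the Acta2/Tagln group to -0.28 for Hspb1, -0.33 for Plat and -0.042 for Ccn1, while Atf3 turned to 1.56 on 6 control and 2 JPI-289 UMIs. Ren1 (0.93 over all members), Myh11 (0.47), Igfbp5 (0.33), Cspg4 (0.081), Notch3 (0.062) and Acta2 (0.015) were also below 0 in the Rgs5/Myh11/Notch3 group. Fos (0.90 over all members) was below 0 in the Acta2/Tagln group. The cause of these turns was not tested beyond the change of barcodes. In the Rgs5/Myh11/Notch3 group Cdkn1a lay between 2.76 and 2.98, Akr1b7 between 2.39 and 2.67, Mt1 between 2.92 and 4.24, Hspb1 between 1.12 and 1.70 and Notch3 between -1.87 and -1.20 over the settings that kept the limit on fibroblast genes; Myl9 (-1.27 to -0.31), Myh11 (-1.43 to -0.55) and Acta2 (-0.39 to 0.32) depended on the deepest barcodes. The oxidative phosphorylation median of -0.24 was -0.02 without these barcodes over the same 38 genes and 0.34 over the 23 still measured. Equal weighting of barcodes moved the smooth muscle transcription factor median from -0.15 to -1.02 and the mitochondrially encoded one from -0.03 to 0.49. Free RNA was estimated at 9.67% and 6.19% of that group's UMIs. The 3 groups and the settings within them were chosen after seeing the data. With 1 mouse per group and 39 barcodes in the Rgs5/Myh11/Notch3 group, variation between mice is not covered by any interval.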
